A study of Mus musculus with 38 samples.

Results

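The organ of Corti (OC) fraction of kainate-treated cochlear explants was compared with that of control explants 72 h after treatment, on 3 kainate and 3 control bead arrays of the 38 arrays in the series. The 6 arrays were chosen by their labels for tissue, time and treatment, and all 25697 probes on them were tested. The explants came from C57BL/6 mice 3 to 5 days old. The kainate group had been exposed to 0.4 mM kainate for 2 h, and the control group was made of other explants that received none. The other arrays held OC at 5 h (4 kainate, 3 control) and 24 h (2 kainate, 4 control), and the spiral ganglion (SG) fraction at the same times, including 3 kainate and 3 control arrays at 72 h. By the study's methods each group began with 4 separate explants, and those given kainate came from different animals. The source animals of the control explants are not stated there, so the p-values measure the spread between explants. Kainate and control arrays are called by their label numbers, 2, 3 and 4.

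Kainate opens a class of glutamate receptors. At the inner hair cells glutamate is released at ribbon synapses onto the endings of the auditory neurons, and an excess of an agonist makes these endings swell and retract while the hair cells remain. The endings can regrow in culture, and the comparison at 72 h asked which transcripts of the target tissue differed at a time that the study places after the end of that regrowth. Hair cells and supporting cells of the OC lie on the floor of the cochlear duct. The duct is closed by non-sensory epithelium, including the thin Reissner membrane on its roof, which is known for secreted proteins and ion transporters.

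Detected probes (detection p under 0.01) numbered 10355 to 11439 on the 6 arrays, against 10043 to 12171 over all 38. The Pearson correlation over all probes was 0.981 to 0.988 between kainate array 4 and the others, and 0.988 to 0.993 among the other 5 arrays. Hair cell markers bore out the tissue label. The mean log2 signal of the 21 measured hair cell genes was 9.65 to 9.92 on the 6 OC arrays and 8.16 to 8.63 on the SG arrays of 72 h. The study's clustering display marks the batch of each array. Kainate 3 shared a batch with control 3, kainate 2 shared one with control 4, and the other 2 arrays each came from a batch of their own.

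Vmo1, Oc90 and Slc26a4, 3 members of the list for Reissner membrane and non-sensory epithelium, were the largest rises in OC 72 h after kainate. Of 21 hair cell genes 0 changed, of 27 neuronal genes 0, and of 24 synaptic vesicle genes 1. The last was Syt8, which none of the 6 arrays detected. Over all 16593 genes 25 were higher and 11 lower, so most lists of the sizes used here would hold 0 calls in any case. At an unadjusted p under 0.005 in limma, the study's threshold, 66 of 25697 probes (0.257%) differed, 40 higher (0.156%) and 26 lower (0.101%). No probe reached a Benjamini-Hochberg adjusted p under 0.05, the smallest being 0.973, and 790 probes had an unadjusted p under 0.05. If no probe differed, thresholds of 0.005 and 0.05 would by themselves pass those shares of probes, which is more than the 66 and the 790. The calls are therefore a description of these arrays and do not by themselves show a response to kainate. Among the 11409 probes above background on at least 2 of 3 arrays of either group, 25 probes for 22 genes were higher (0.219%) and 2 were lower (0.0175%). All 3 kainate arrays lay above all controls for 24 of the 25 (3.78% of all probes did) and below all controls for 1 of the 2 (3.41%). These probes were picked by their difference on the same 6 arrays, so this separation follows largely from the choice. The remaining 15 higher and 24 lower probes were not above background. Over 2-fold differences, a log2 difference over 1, were found for 6 changed probes. Leaving out 1 array gave between 48 and 130 changed probes, with 105 when kainate 2 was left out and 130 without kainate 3. The higher probes above background then numbered 55 without kainate 3, and 14 without kainate 4 or without control 2. The lower ones numbered 3 to 26 over these 6 fits. With equal array medians in place of quantile normalization, 34 probes were higher and 12 lower, and 12 of the higher ones were above background.

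**Figure D1:**
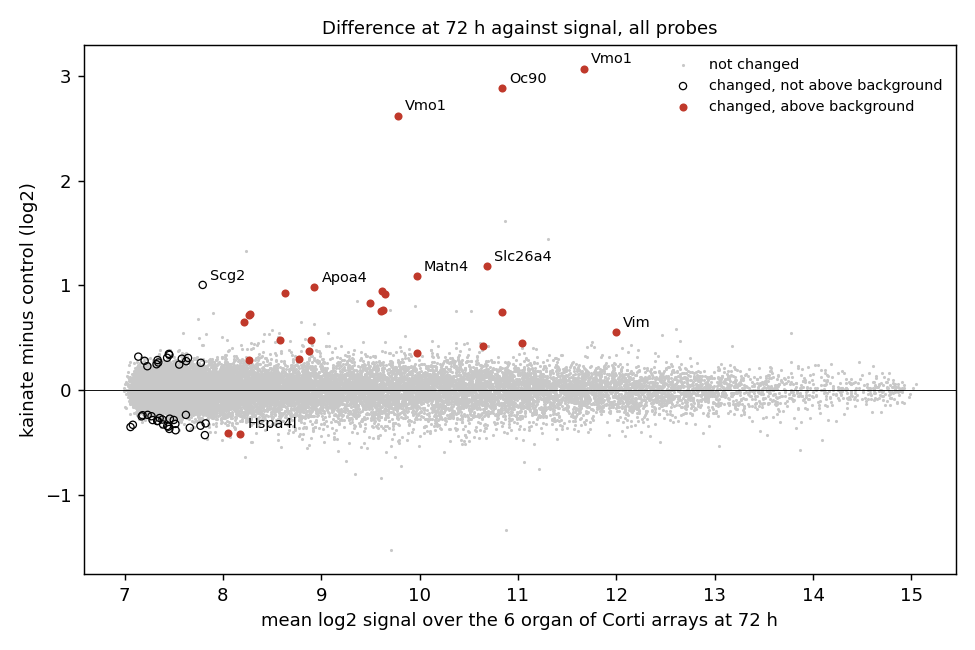
Kainate minus control at 72 h (log2, vertical axis) against the mean log2 signal over the 6 OC arrays (horizontal axis), 1 point per probe. Filled red points are changed probes above background, open circles are changed probes not above background, and grey points are the other probes. The 2 Vmo1 probes and Oc90 stand at 2.62 to 3.07, and most of the open circles lie at the dim end.

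Oc90 encodes otoconin, a protein of the otoconia that is made by non-sensory epithelium of the inner ear. Its log2 signal was 11.41, 13.67 and 11.74 on kainate arrays 2, 3 and 4, and 11.03, 8.83 and 8.32 on control arrays 2, 3 and 4. The groups did not overlap, but control 2 lay only 0.38 below kainate 2, far from the other controls. The difference was 2.88 (SE 0.71, 95% interval 1.43 to 4.33), a 7.38-fold higher signal that passed the unadjusted threshold (limma adjusted p = 1). This SE pools all groups. The standard deviation was 1.22 and 1.44 for kainate and control OC at 72 h, but 0.11 to 0.18 in the SG groups. The SE and the interval are therefore too small for the OC arrays. Of 18 alternative fits, 4 lost the call. Among these, the difference was 2.18 without kainate 3 and 2.35 without control 4. Within the 2 shared batches it was 4.85 (kainate 3 and control 3) and 3.10 (kainate 2 and control 4).

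Vmo1 encodes a secreted protein named after its homologue in the outer layer of the vitelline membrane of bird eggs. At its brighter probe the log2 signal was 12.44, 14.46 and 12.71 with kainate and 12.12, 9.83 and 8.46 in the controls. The order of the 6 arrays was the same as for Oc90 at both Vmo1 probes, with kainate 3 highest and control 2 the highest of the controls. The difference was 3.07 (SE 0.91) at this probe and 2.62 (SE 0.62) at the other. As for Oc90, these pooled SEs are too small for the OC arrays. Neither probe passed the threshold without kainate 3, at 2.44 and 1.93, and the brighter one did not pass without control 3 (2.92) or control 4 (2.23) either. Of 18 alternative fits, 8 lost the call of the brighter probe and 1 lost that of the other.

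Slc26a4 encodes pendrin, an exchanger of chloride and bicarbonate in non-sensory cells of the inner ear, where its loss causes deafness in mice and humans. Its log2 signal was 10.70, 11.50 and 11.61 with kainate and 9.92, 10.31 and 10.04 in the controls. The groups did not overlap, and control 2 was the lowest of the 6 here, unlike for Oc90 and Vmo1. The difference was 1.18 (SE 0.28), 2.27-fold, or 1.19 and 0.67 within the 2 shared batches. It passed the threshold under each of 18 alternatives, between 1.01 and 1.47.

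These 3 genes were the members that rose among the 19 measured genes of the list for Reissner membrane and non-sensory epithelium, and none of its members fell. The median difference of the list was 0.12, against -5e-04 over all 16593 genes, of which 25 were higher and 11 lower. The list was chosen with earlier results of these data known, so its count and median are a description only. Ttr, the thyroid hormone carrier transthyretin, and Otx2, a homeodomain factor of this epithelium, had differences of 1.33 (SE 0.49) and 0.74 (SE 0.26) and did not pass the threshold. Both were picked after their values were seen. Otx2 was dim, at 7.71, 9.04 and 8.05 with kainate and 7.82, 7.40 and 7.37 in the controls. Kainate 2 lay below control 2, and kainate 3 was highest. The keratins Krt8 and Krt18 stood at -0.26 and -0.28, and Gata2, a zinc finger factor, at 0.06. The mean log2 signal of the list was 9.91 to 10.47 on the kainate arrays and 9.39 to 9.93 on the control arrays, so that the groups overlapped through control 2. In bulk tissue, more cells of a type and more RNA per cell cannot be told apart.

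The same genes had their highest signals in the SG fraction. At 72 h the SG arrays, both treatments together, read 14.49 to 14.83 for Oc90, 14.66 to 14.87 for the brighter Vmo1 probe and 12.97 to 13.61 for Slc26a4, above every OC array. The highest log2 signal of any probe on any array was 15.09. Of the 25 higher probes above background, 13 (52%) had all 6 SG arrays above all 3 OC control arrays, against 1235 of 11409 probes above background (10.8%). The 13 belonged to 12 genes. The 25 probes were picked for controls below kainate, and the same controls enter this count, which raises the share by itself. The 52% and 10.8% are therefore not a fair contrast. As a second measure, the 100 probes with the largest SG over OC difference in control explants of 5 and 24 h were read on the arrays of 72 h. Their mean log2 signal was 9.30, 9.66 and 9.39 on kainate arrays 2, 3 and 4 and 9.25, 9.40 and 9.21 on the controls, so kainate 3 was highest and the groups overlapped. The SG arrays read 10.59 to 11.17. Of these 100 probes, all above background, 7 were higher, 0 were lower, and the median difference was 0.03. Over all probes above background 0.219% were higher and 0.0175% lower. The 7 are among the 25 higher probes, so they are not a separate observation. Of the 100 probes with the largest OC over SG difference, 1 was higher and 0 were lower, with a median of -0.04. The part of SG-side tissue in the rises was not tested.

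**Figure D2:**
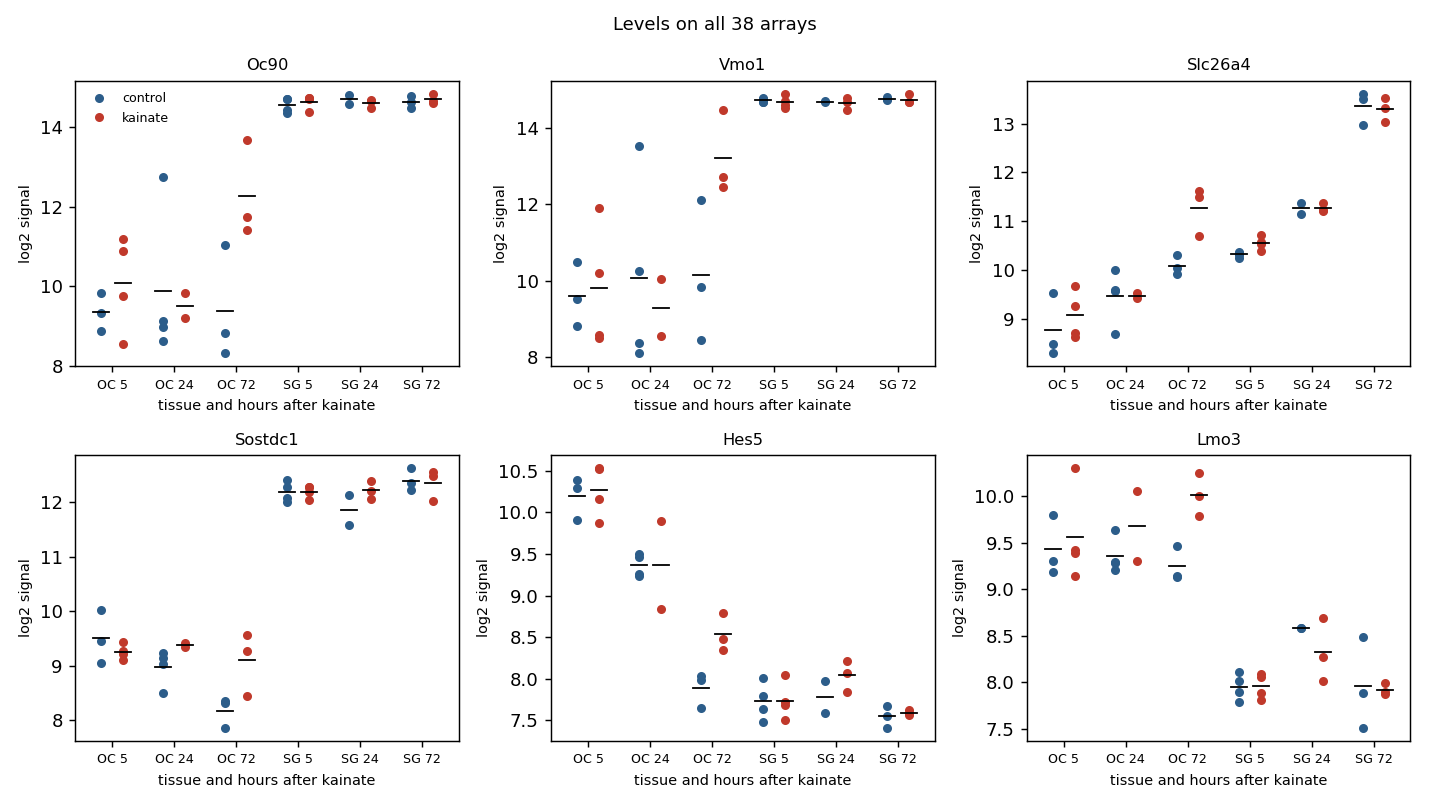
Log2 signal (vertical axes) of Oc90, Vmo1 (brighter probe), Slc26a4, Sostdc1, Hes5 and Lmo3 on all 38 arrays, by tissue and hours after kainate (horizontal axes). Each point is 1 array, black lines are group means, blue is control and red is kainate. For Oc90 the OC controls spread from 8.32 to 12.76 while all SG arrays stand above 14.

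The OC arrays of earlier times showed a wide spread for Oc90 in untreated tissue as well. Control arrays ranged from 8.88 to 9.83 at 5 h and from 8.63 to 12.76 at 24 h, so 1 control array of 24 h lay above 2 of the 3 kainate arrays of 72 h. Vmo1 showed the same, with controls from 8.10 to 13.52 at 24 h. For Slc26a4 the earlier OC arrays, from 8.30 to 10.01, were all below the kainate arrays of 72 h.

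Otx2 binds sites with the bicoid-class core TAATCC, so the bases before the start of Vmo1 are shown with each match in capitals on either strand. The sequence is from RefSeq on GRCm38.p6, 250 bases 5′ to 3′ at chr11:70514617-70514866, minus strand.
Vmo1: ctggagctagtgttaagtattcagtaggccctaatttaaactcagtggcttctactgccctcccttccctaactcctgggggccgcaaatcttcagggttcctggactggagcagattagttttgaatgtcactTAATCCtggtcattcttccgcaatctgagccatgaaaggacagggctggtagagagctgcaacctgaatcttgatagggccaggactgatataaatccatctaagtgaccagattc
There was 1 match, from 116 to 111 bases before the start, and this motif occurs in 6.25% of the 32851 windows of the same length in the table. Of the 22 risen genes, 18 had a window and 2 of them, Vmo1 and Ptx3, held a match, which describes these letters only. A gene counted if any of its windows matched, so this count is not comparable to the share of windows.

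The lists for matrix remodelling (23 genes measured) and for the tectorial membrane and cochlear matrix (16) held 0 calls. Outside these lists, Matn4, an adaptor protein of the extracellular matrix, had log2 signals of 10.66, 10.22 and 10.66 with kainate and 9.52, 9.68 and 9.08 in the controls. All 3 kainate arrays were above all controls, and the difference was 1.08 (SE 0.29). It was 0.91 without control 4, no longer past the threshold, and 2 other probes, which were dim, differed by 0.11 and 0.30 and did not pass. Prelp, a small leucine-rich proteoglycan of connective tissue, read 10.59, 9.68 and 10.05 against 9.29, 9.20 and 9.07. The controls lay close together below all kainate arrays, with a difference of 0.92 (SE 0.25) that was 0.68 and did not pass without kainate 2. Wfdc3, a protein with protease inhibitor folds, read 10.33, 9.79 and 10.15 against 9.26, 8.93 and 9.24, a difference of 0.95 (SE 0.30). It passed with kainate 3 left out, and missed the threshold, at 0.83 to 1.01, with any other array left out.

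Sostdc1, a secreted antagonist of BMP and Wnt signals, read 8.45, 9.56 and 9.28 with kainate and 8.35, 7.86 and 8.30 in the controls. Kainate 2 was only just above the highest control, and the difference of 0.93 (SE 0.23) was 0.69, no longer past the threshold, without kainate 3. Ptgds, the enzyme that makes prostaglandin D and is also secreted as a lipid carrier, read 11.06, 11.19 and 11.39 against 10.41, 10.32 and 10.67. Each kainate array was above each control, with a difference of 0.75 (SE 0.20) that missed the threshold without kainate 4 (0.66) or control 3 (0.67). Matn4, Prelp, Wfdc3, Sostdc1 and Ptgds were all among the 12 genes with higher SG signals, and Wfdc3, Sostdc1 and Ptgds read 12.03 to 13.51 there.

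Apoa4, an apolipoprotein of lipid transport, had the smallest p of the comparison. Its log2 signal was 9.65, 9.12 and 9.49 with kainate and 8.05, 8.67 and 8.60 in the controls. Every kainate array was above every control, and the difference was 0.98 (SE 0.20, 95% interval 0.56 to 1.40, limma adjusted p = 0.973). It passed the threshold under all 18 alternatives, as did Slc26a4, and these were the only 2 of the 23 named probes past the threshold to do so. The SG arrays of 72 h read 8.23 to 8.77, overlapping the OC controls.

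Ptx3, the long pentraxin of innate immunity, rose at both of its probes, by 0.83 (SE 0.21) at the dimmer and 0.75 (SE 0.24) at the brighter one. The dimmer probe read 10.13, 9.65 and 9.96 with kainate and 8.80, 9.66 and 8.79 in the controls. Control 3 stood with the kainate arrays, so this was the 1 risen probe above background whose groups overlapped, and within the batch of kainate 3 and control 3 the difference was -0.01. It missed the threshold without kainate 2, control 2 or control 4, at 0.68 to 0.72, as did the brighter probe without any of these or kainate 4, at 0.59 to 0.77. Lmo3, a LIM-domain cofactor of transcription, read 9.78 to 10.25 with kainate and 9.13 to 9.47 in the controls at its brighter probe. The groups did not overlap, with a difference of 0.76 (SE 0.23) there and 0.48 (SE 0.16) at the other probe. The brighter probe passed only without kainate 3 or control 4, and was 0.65 to 0.77 without each of the others. For Lmo3 and for the brighter Ptx3 probe, all SG arrays were below all OC controls.

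**Figure D3:**
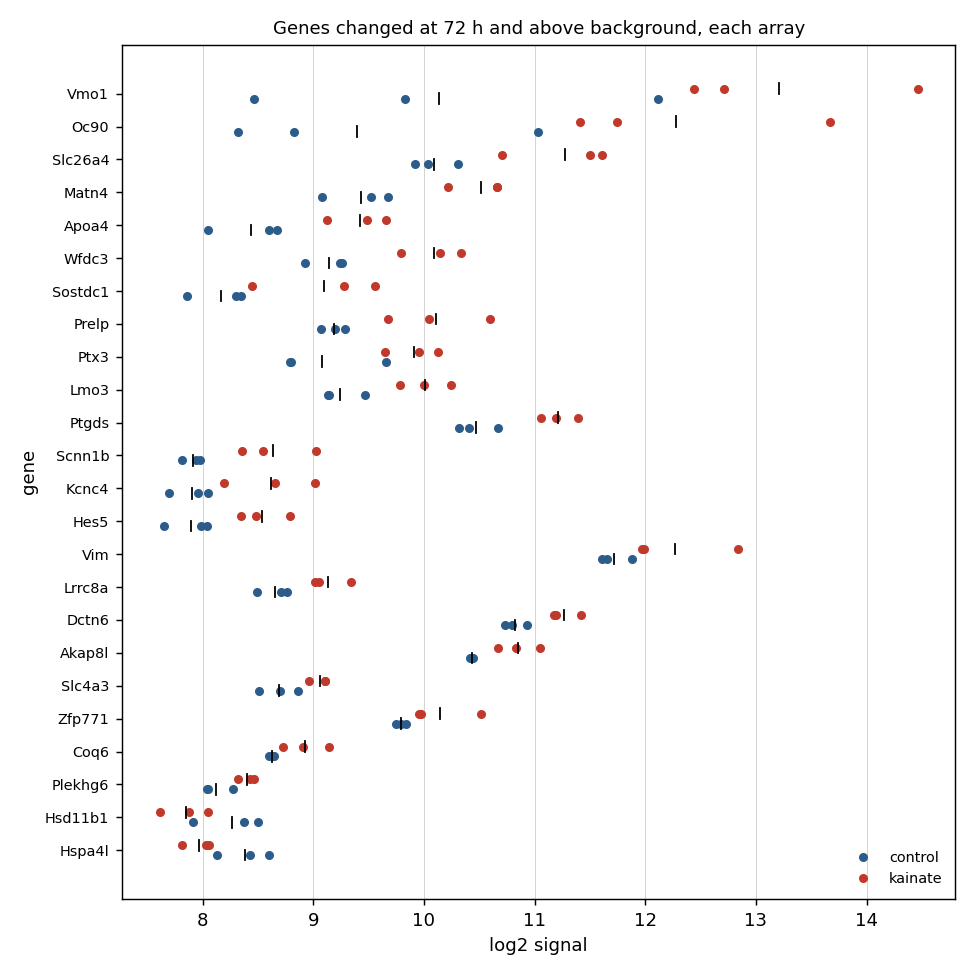
Log2 signal on each of the 6 OC arrays at 72 h (horizontal axis) for the 22 risen and 2 fallen genes above background (vertical axis), at the changed probe with the largest difference. Red points are kainate arrays, blue points are control arrays, and black ticks are group means. The controls of Vmo1 and Oc90 spread over more than 2 units, while those of Prelp and Scnn1b lie close together.

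Scnn1b, a subunit of the epithelial sodium channel, read 8.54, 9.02 and 8.36 with kainate and 7.81, 7.94 and 7.98 in the controls, where no array detected it. The difference was 0.73 (SE 0.22), and it missed the threshold without kainate 3 (0.54) or without any 1 control (0.68 to 0.76). Kcnc4, a voltage-gated potassium channel, read 8.65, 8.20 and 9.01 against 7.69, 8.05 and 7.96, also not detected in any control, with a difference of 0.72 (SE 0.21). It was 0.52 to 0.70 and did not pass without kainate 2, kainate 4 or control 2, and its other probe differed by 0.09. Lrrc8a, a subunit of the volume-regulated anion channel, rose by 0.48 at 1 probe, with -0.03 at its brighter one. Slc4a3, an anion exchanger, rose by 0.37 at 1 of its 4 probes, and the others differed by -0.05 to 0.18.

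Hes5 encodes a repressor that Notch signalling switches on, and in the cochlea it marks supporting cells. Its dimmer probe read 8.48, 8.35 and 8.79 with kainate and 7.65, 7.99 and 8.04 in the controls, where no array detected it. The kainate arrays were all above the controls and the difference was 0.65 (SE 0.20), or 0.52 without kainate 4 and 0.53 without control 2, where it did not pass. The brighter probe lay within 8.31 to 8.60 on 5 of the 6 arrays and at 9.23 on kainate 4, and its difference of 0.37 (SE 0.26) did not pass. On the dimmer probe the OC control arrays had read 9.91 to 10.39 at 5 h and 9.23 to 9.50 at 24 h, so both groups of 72 h were below every control of the earlier times. Hes5 is a direct target of RBPJ, the DNA-binding partner of Notch. Its promoter is shown with matches to the RBPJ core GTGGGAA on either strand in capitals, from RefSeq on GRCm38.p6, 250 bases 5′ to 3′ at chr4:154960673-154960922, plus strand.
Hes5: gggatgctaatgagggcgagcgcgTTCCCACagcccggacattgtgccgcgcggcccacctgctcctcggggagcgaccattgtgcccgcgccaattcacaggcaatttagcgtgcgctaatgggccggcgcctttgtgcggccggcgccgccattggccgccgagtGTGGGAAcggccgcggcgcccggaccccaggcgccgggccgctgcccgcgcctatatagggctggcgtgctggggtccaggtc
The 2 matches lie 226 to 220 and 83 to 77 bases before the start, on opposite strands, and 5.42% of the 32851 windows hold at least 1. Among the 18 risen genes with a window, Hes5, Lmo3, Slc4a3 and Wfdc3 held one. This count is again by gene, over any of its windows, and is not comparable to the share of windows.

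The other genes of the Notch list did not move with Hes5. None of its 23 measured members passed at the brightest probe, and the median was -0.02. Rita1, whose protein binds RBPJ, fell by 0.34 at 1 of its probes (SE 0.10), which was not detected on any of the 6 arrays. Its brightest probe differed by 0.12 (SE 0.13). Heyl, another Notch target, stood at -0.24 (SE 0.19).

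Vim, an intermediate filament protein of mesenchyme and of supporting cells, read 11.99, 11.98 and 12.84 with kainate and 11.66, 11.88 and 11.61 in the controls. Kainate 4 stood above the rest and the other kainate arrays were just above the controls. The difference was 0.55 (SE 0.17). It was 0.27 without kainate 4, 0.52 without control 2 and 0.50 without control 4, and no longer passed the threshold in these fits. Vim was the 1 member of 18 in the list for fibroblasts and mesenchyme that rose, with a list median of -0.06. The remaining risen genes above background, Dctn6, Akap8l, Zfp771, Coq6 and Plekhg6, had differences of 0.28 to 0.45, and a brighter probe of Coq6 stood at -0.02.

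The falls were few and small. Hspa4l, a chaperone of the large heat shock protein family, read 8.06, 8.03 and 7.81 with kainate and 8.13, 8.60 and 8.42 in the controls. No kainate array reached the lowest control, and it fell by 0.42 on the log2 scale (SE 0.13). Without kainate 4, control 3 or control 4 the difference was -0.31 to -0.40 and did not pass. Hsd11b1, which regenerates active glucocorticoid, fell by 0.41 (SE 0.13) at its dimmest probe, where control 3 lay among the kainate arrays. Its 3 bright probes differed by -0.37 to -0.38 (SE 0.26 to 0.27) and did not pass, and the dimmest one passed only without kainate 2 or control 3. The 24 lower probes that were not above background had differences of -0.24 to -0.43.

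Markers of the sensory epithelium and its innervation held no other call. Of 21 hair cell genes 0 passed in either direction, with a median of -0.04 and a range of -0.21 to 0.25. Chrna9, a subunit of the receptor for efferent input on hair cells, stood at 0.25 (SE 0.16) and Ptprq, a phosphatase of the hair bundle, at -0.15 (SE 0.14). None of the 17 ribbon synapse genes passed, with a median of -0.03. Of 22 supporting cell genes, a list that holds Hes5, 0 passed at their brightest probes, with a median of 0.03. The 27 neuronal genes, some of which are also expressed in the epithelium, had 0 calls and a median of 0.01. Their mean log2 signal was 9.27 to 9.38 on the 6 OC arrays and no higher than 9.25 on the SG arrays of 72 h. Calb2, the calcium-binding protein calretinin, stood at 0.31 (SE 0.22). The 95% interval of a difference reached a median of 0.28 to either side for probes above background. The threshold of p under 0.005 is stricter than that interval. Changes of this size, and somewhat larger ones, would therefore in general not have been called with this number of arrays.

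The lists for synapse organizers (28 genes measured), axon guidance (49), neurotrophic factors and receptors (24), glutamate receptors and uptake (25) and nerve injury and regeneration (25) held 0 calls each, with medians from -0.04 to 3e-04. Of the 24 synaptic vesicle genes, Syt8 was higher and none was lower. Syt8, a member of the synaptotagmin family of vesicle proteins, read 7.75, 7.71 and 7.73 with kainate and 7.39, 7.47 and 7.43 in the controls. The groups were apart and each was tight, but no array of the 6 detected the probe. Its difference was 0.30 (SE 0.08), and it passed the threshold with any 1 array left out. Of the 10 genes that the study names, Syt8 was the only one past the threshold, and that list is not independent of these samples. Sox21, a transcription factor of the sensory epithelium, and Nlgn2, a postsynaptic adhesion protein, stood at -0.06 and -0.02 at their brightest probes.

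The lists for immune, stress and growth genes, which do not hold Ptx3 or Hspa4l, had no call. There were 0 changed genes among 24 markers of macrophages and leukocytes, 30 genes induced by interferon, 33 of the chemokine, cytokine and NF-kB list, 16 of complement, 23 genes of ER stress, 21 of redox defence and 33 of the cell cycle. The macrophage list had a mean log2 signal of 8.30 to 9.20 with kainate and 8.32 to 9.22 in the controls, with array 3 highest in both groups. Ccl7, a chemokine for monocytes, stood at -0.68 (SE 0.48) and Txnip, an inhibitor of thioredoxin, at 0.42 (SE 0.39). In the cholesterol synthesis list 14 of 15 genes were below 0, with a median of -0.09, and 0 passed. Over all 16593 genes 8267 were above 0. The median of this list was also below 0 at OC 24 h (-0.24), OC 5 h (-0.15) and SG 72 h (-0.10). Fst, an inhibitor of activin, stood at 0.85 (SE 0.41) and Cdkn1c, a cell cycle inhibitor, at 0.53 (SE 0.21), and neither passed. Over the 37 lists the medians ranged from -0.12 for melanocytes to 0.14 for red blood cells, 33 lists held no member past the threshold at its brightest probe, and all 37 had overlapping group levels.

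**Figure D4:**
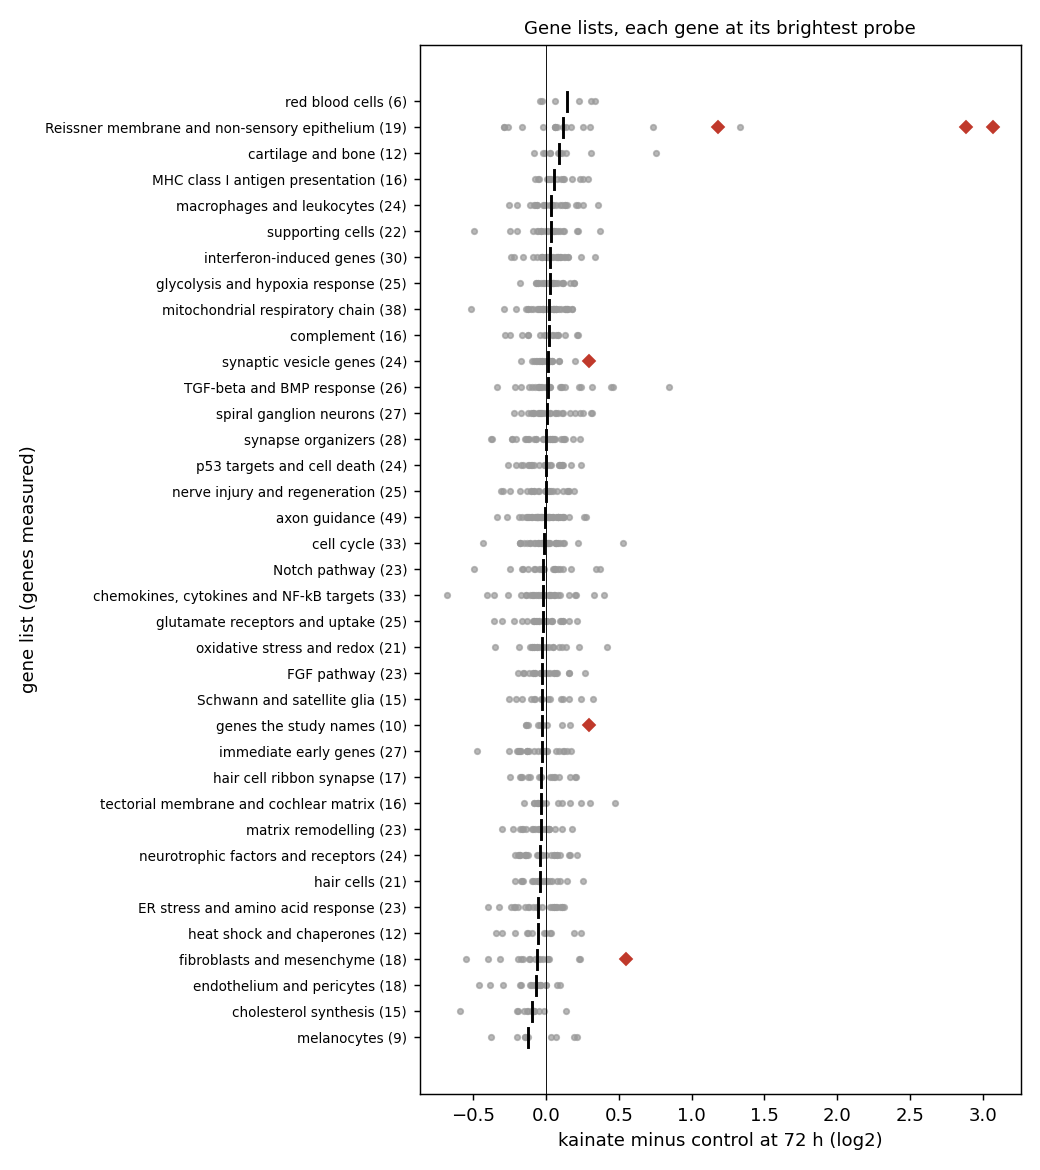
Kainate minus control at 72 h (log2, horizontal axis) for the members of each gene list (vertical axis, with the number of genes measured), each gene at its brightest probe. Grey points did not pass the threshold, red diamonds did, and black bars are list medians. The diamonds to the right of 1 are Slc26a4, Oc90 and Vmo1, and all list medians lie between -0.12 and 0.14.

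The rises of 72 h were set beside the other comparisons, which used other arrays. The study divided each explant into OC and SG, so arrays of both fractions at 72 h may come from the same explants. Over all probes 0.272% changed at OC 24 h (0.148% higher, 0.125% lower), 0.136% at OC 5 h (0.07% higher, 0.0662% lower) and 0.179% in SG at 72 h (0.0778% higher, 0.101% lower). Of the 25 higher probes above background, 0 passed the threshold at OC 24 h, 0 at OC 5 h and 1 in SG at 72 h. In the other comparisons their differences were at most 0.76 in size at OC 24 h, 0.75 at OC 5 h and 0.30 in SG at 72 h. Oc90 had differences of -0.37 (SE 0.75) at OC 24 h and 0.75 (SE 0.66) at OC 5 h. Ptx3 and Prelp came nearest at OC 24 h, with 0.69 (SE 0.25) at the brighter Ptx3 probe and 0.64 (SE 0.26) for Prelp. The probe in common with SG at 72 h was that of Plekhg6, at 0.28 in OC and 0.30 in SG. The dim Rita1 probe was lower in both, at -0.34 in each.

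The differences between these effects were tested in the same fit. That fit treats OC and SG arrays as independent, although both fractions of 1 explant may be among them. The effect at OC 72 h differed from that at OC 24 h for 77 probes (0.3%), 44 higher (0.171%) and 33 lower (0.128%). It differed from that at OC 5 h for 35 (0.136%), 20 higher (0.0778%) and 15 lower (0.0584%), and from that in SG at 72 h for 42 (0.163%), 29 higher (0.113%) and 13 lower (0.0506%). These counts ran up to 163, 86 and 69 without kainate 3, and the last 2 were 56 and 64 without kainate 2. The count for SG was 27 without kainate 4. No probe passed an adjusted p of 0.05 in any of them, and 1007, 670 and 704 had an unadjusted p under 0.05. The counts of 77, 35 and 42 were also below those expected at this threshold if no probe differed. Among the 25 higher probes 6, 4 and 6 passed, the last count including the dimmer Vmo1 probe. These tests contain the 72 h contrast by which the probes were picked, so the counts are a description. For Oc90 the effect was higher at 72 h than at 24 h by 3.25 (SE 1.04, limma adjusted p = 0.998). For Oc90 and Vmo1 the SG signals, 14.49 to 14.87, lay so near the highest signal of any array, 15.09, that a rise there could hardly have shown, and their effects in OC and SG cannot be compared.

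**Figure D5:**
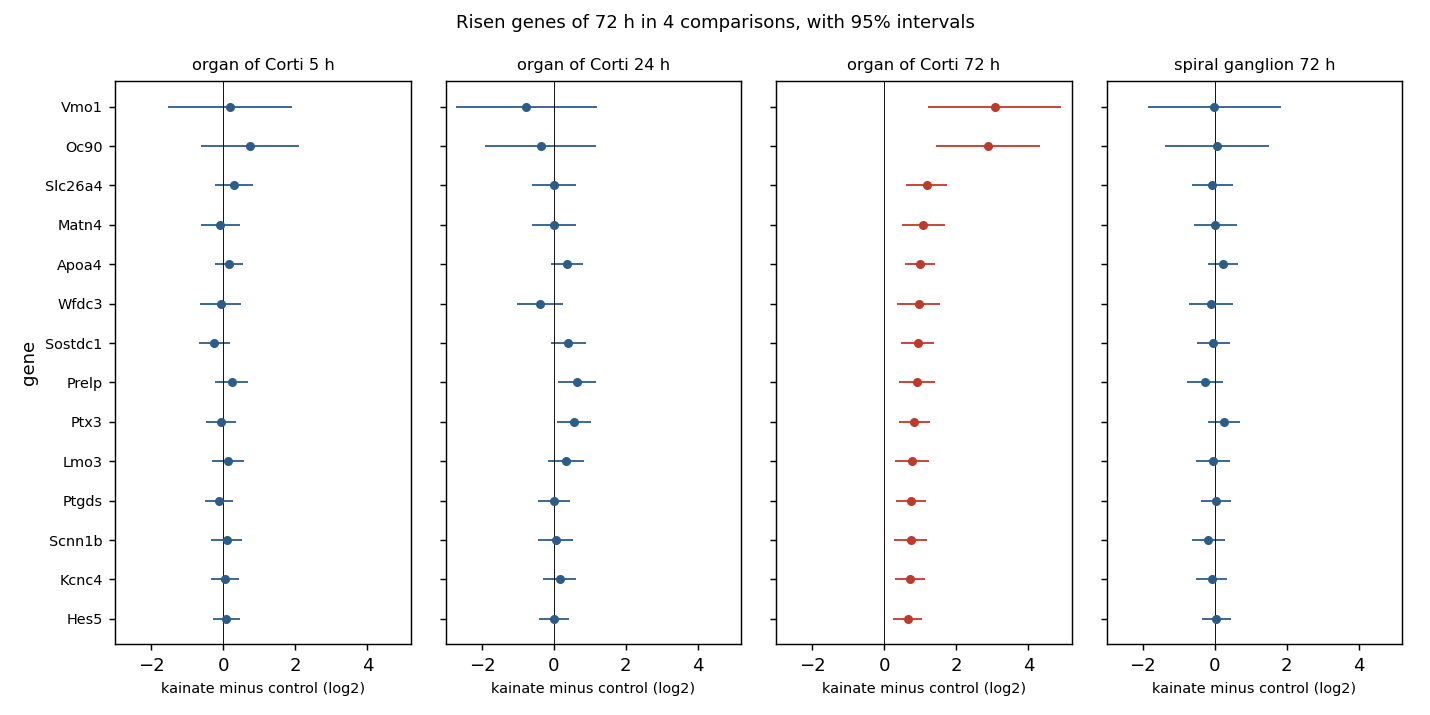
Kainate minus control (log2, horizontal axes) for the 14 genes of the largest rises at 72 h (vertical axis) in OC at 5, 24 and 72 h and in SG at 72 h. Points are limma estimates at the probe with the highest difference and bars are 95% intervals. The intervals exclude 0 for all 14 genes at OC 72 h, by which they were picked, and for Prelp and Ptx3 at OC 24 h. The SG signals of Vmo1 and Oc90 lay near the highest of any array, and the pooled intervals of these genes are too narrow for OC.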

How the data were processed

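The authors deposited raw signal intensity on a linear scale, log2 normalized values and a detection p-value for each probe on mouse bead arrays. The deposited log2 values equal the log2 raw intensities quantile normalized over all 38 arrays to within 4.99e-09, and no background was subtracted. The sample labels name limma as a processing tool, without a version. The number of arrays limits the precision.

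All 38 arrays entered 1 linear model in limma 3.58.1 under R 4.3.3, with 1 mean per group and moderated variances (26 residual and 5.36 prior degrees of freedom). The fit was tested on simulated data. A probe was changed at an unadjusted p under 0.005, with Benjamini-Hochberg adjustment over 25697 probes beside it. Probes above background had a detection p under 0.01 on at least 2 of 3 arrays of either group. Of the probes, 23978 carried 1 gene symbol and 1719 none. Members, 37 gene lists and tests were chosen with earlier results of these data known. Genes were read at the probe of highest mean signal. Named genes were up to 14 largest rises and falls above background, list members past the threshold, the 2 members of smallest p in each list, genes the study names, and genes shared with another comparison. Ttr, Otx2, Krt8, Krt18, Gata2 and the smaller rises were named after their values were seen. Batches were read from the study's clustering display. Alternatives were other background corrections and scalings, fewer arrays or probes, batch or replicate number as a block, array weights, no moderation, other thresholds, and each array left out. Promoter windows came from RefSeq.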

Additional observations from a re-analysis of the deposited data

Results flagged for a closer look

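Some named genes had a kainate effect at OC 72 h that differed from that in another comparison at an unadjusted limma p under 0.005. None passed after adjustment over all probes (adjusted p of 0.998 against OC 24 h and of 1 in the others), and each test shares the 72 h arrays by which most of these genes were picked.

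Against OC 24 h, the effect was higher at 72 h for the dimmer Vmo1 probe by 3.28, for Oc90 by 3.25, for Wfdc3 by 1.34 and for Vim by 0.80. The difference for Syt8 was 0.51. It was lower for the dim Rita1 probe, at -0.45. For the brightest probe of Epha7, a receptor of axon guidance that did not pass at 72 h, the difference was -0.92. OC 24 h had 2 kainate arrays.

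Against OC 5 h, the effect was higher for Sostdc1 by 1.18, for the dimmer Ptx3 probe by 0.90, for Ptgds by 0.87 and for Syt8 by 0.45. It was lower for Hspa4l, at -0.55.

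Against SG 72 h, the fitted difference for the dimmer Vmo1 probe was 2.67, but its SG signals of 14.65 to 14.78 lay near the highest of any array, 15.09, so this value is no measure of a difference between tissues. The effect in OC was higher for Slc26a4 by 1.25, for Prelp by 1.20, for Sostdc1 by 0.97 and for Syt8 by 0.40. Syt8 was not detected on any of the 6 OC arrays of 72 h. Groups of 3 arrays were not searched for single arrays that stand apart.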

How the results depend on the processing

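Of the 23 named probes past the threshold, Slc26a4 and Apoa4 passed it under every alternative fit, and 3 passed it with any 1 array left out, Syt8 being the third. The count of changed probes, 66 as reported, was 48 to 130 with 1 array left out, 24 among probes above background alone, 28 with the 6 arrays alone, 790 at an unadjusted p under 0.05 and 0 at an adjusted p under 0.05. Adjusted calls at OC 72 h and in the 3 difference tests were 0 to 0 with 1 array left out. For the difference from OC 24 h (77) the count was 56 to 163 with 1 array left out, 131 with batch as a fixed block, 1007 at p under 0.05 and 0 adjusted. For the difference from OC 5 h (35) it was 30 to 86, 64 with batch as a fixed block and 62 as a random one, 670 and 0. For the difference from SG 72 h (42) it was 27 to 69, 64 with batch as a random block, 19 with equal array medians, 704 and 0. Within the batch of kainate 3 and control 3 the dimmer Ptx3 probe turned from 0.83 to -0.0056. The cause was not tested.

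Replicate number was not used to pair the arrays in the main fit. The rule asked for a residual correlation over 0.1 in every same-numbered pair of kainate and control, and these were 0.06, 0.36 and 0.25. Differently numbered kainate and control arrays had residual correlations of -0.31 to 0.06. Among the controls, each kainate array correlated most with that of its own number (Pearson 0.9911, 0.9926 and 0.9875). Pairing was therefore not excluded. With replicate number as a block over all arrays, 91 probes changed at OC 72 h, 39 of them shared with the 66, and 7 passed an adjusted p under 0.05. With the same replicate block on the 6 OC arrays alone, 53 changed, 16 of them shared with the 66, 0 passed an adjusted p under 0.05 in limma and 749 had an unadjusted p under 0.05. The counts of the difference tests under this replicate block were 127 from OC 24 h, with 1 adjusted call, 77 from OC 5 h, and 167 from SG 72 h, with 1 adjusted call.

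Signal near background limited 39 of the 66 calls. With 3 arrays a group many calls depended on a single array, and those of Vmo1 and Oc90 were lost without kainate 3. The SEs of Vmo1 and Oc90, also in the difference tests, were pooled with the small spread of their SG arrays. They are therefore understated for the OC arrays. Batch and treatment were crossed in only 2 pairs of arrays.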

Other observations

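Scg2, a precursor of neuropeptides, was the largest change among probes not above background. It read 7.81, 7.75 and 9.32 with kainate and 7.27, 7.43 and 7.18 in the controls, a difference of 1.00, with kainate 4 far above the other arrays. The largest differences that did not pass belonged to genes with a wide spread within groups. Car13, a carbonic anhydrase, stood at 1.62, with controls from 7.14 to 12.12, and Reg3b, an antimicrobial lectin, at -1.53 (SE 0.92). These genes were named after their values were seen.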
